A study of Mus musculus with 4 samples.

Results

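The peaks described here lie in 3 windows of 5 Mb named after cadherin and protocadherin genes of the mouse, whose gene positions on this build were not used here: 110 to 115 Mb on chromosome 1 (the Cdh7 window), 45 to 50 Mb on chromosome 3 (the Pcdh10 and Pcdh18 window) and 90 to 95 Mb on chromosome 14 (the Pcdh9 window), all on mm9. A peak was a member when its midpoint fell inside a window, which gave 267, 251 and 236 peaks, 754 of the 37778 peaks of the list (2.0%). The windows had been picked because they hold many peaks, so peak number and what follows from it are given as a description. The peaks come from chromatin immunoprecipitation with an anti-FLAG antibody in the dentate gyrus of C57BL6 mice of a FLAG tagged-Mbd1 line, aged about 9 weeks. The ChIP group (2 libraries, anti-FLAG) and the input group (2 libraries, no antibody) share strain, line, tissue and age, and none of the 4 is an anti-FLAG ChIP of mice without the tag. The labels give no other allele, sex or number of animals, and do not say whether animals were pooled. The list combines the 4 libraries without a value for any single one, so no value below has a replicate error, no test across samples was possible, and intervals cover counting error or the spread over peaks, treated as independent.

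MBD1 carries a domain that binds methylated CpG and zinc fingers of the CXXC type, and is known as a transcriptional repressor that matters for adult neurogenesis in the dentate gyrus. Cadherins are calcium-dependent adhesion proteins of the cell surface: Cdh7 encodes a type II cadherin, and Pcdh9, Pcdh10 and Pcdh18 encode protocadherins whose genes stand alone rather than in the large protocadherin clusters. Genes of this kind are known to be expressed in restricted sets of neurons and often lie in gene deserts, long stretches with few protein-coding genes.

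The RefSeq table (GRCm38.p6) was used for names and gene order only. In it Serpinb8 is the protein-coding neighbour before Cdh7, with Serpinb10 and Serpinb2 further on. After Cdh7 come Cdh19, another cadherin, and then Dsel and Cntnap5a. Pcdh10 and Pcdh18 have D3Ertd751e on the one side and Slc7a11, a cystine transporter gene, on the other, and only Pabpc4l lies between them. Pcdh9 stands between Pcdh20, another protocadherin gene, and Spertl, with Klhl1 beyond. No gene positions on mm9 were used here. Peaks near the genes were therefore not separated from peaks in the desert. The label of gene desert was not tested, since gene order gives no distances.

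The methyl-binding domain reads CpG that is methylated, and methylation was not measured here. For its CpG content only, the sequence just before the start of each of the 4 genes that name the windows is shown. Each run is the 250 bases before the first start listed for the gene in the RefSeq promoter table (GRCm38.p6; plus strand for Cdh7 and Pcdh10, minus strand for Pcdh18 and Pcdh9), 5′ to 3′, with CG in capitals. The motif reads the same on both strands.
Cdh7: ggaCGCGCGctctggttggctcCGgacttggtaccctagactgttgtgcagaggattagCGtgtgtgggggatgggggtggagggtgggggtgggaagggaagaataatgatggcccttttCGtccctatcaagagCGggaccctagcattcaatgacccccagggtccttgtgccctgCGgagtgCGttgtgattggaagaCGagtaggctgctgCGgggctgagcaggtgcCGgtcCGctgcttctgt
Pcdh10: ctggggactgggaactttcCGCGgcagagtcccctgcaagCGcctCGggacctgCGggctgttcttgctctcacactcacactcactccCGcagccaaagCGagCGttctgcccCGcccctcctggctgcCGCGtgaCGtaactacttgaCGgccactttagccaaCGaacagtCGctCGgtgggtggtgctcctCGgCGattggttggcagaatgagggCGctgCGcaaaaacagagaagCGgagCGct
Pcdh18: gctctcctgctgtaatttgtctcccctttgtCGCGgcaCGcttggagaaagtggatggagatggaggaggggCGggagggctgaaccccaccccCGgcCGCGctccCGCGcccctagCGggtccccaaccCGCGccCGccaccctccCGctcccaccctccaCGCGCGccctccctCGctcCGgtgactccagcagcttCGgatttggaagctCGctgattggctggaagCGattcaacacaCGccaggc
Pcdh9: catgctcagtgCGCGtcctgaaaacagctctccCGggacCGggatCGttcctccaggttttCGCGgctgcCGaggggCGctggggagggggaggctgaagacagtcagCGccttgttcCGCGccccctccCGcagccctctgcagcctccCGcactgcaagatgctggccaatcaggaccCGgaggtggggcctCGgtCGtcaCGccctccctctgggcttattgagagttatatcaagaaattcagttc
They hold 13, 22, 23 and 18 CpG, against a median of 6 in the 32851 entries of the table, of which 92.1% hold at least 1. All 4 starts are thus richer in CpG than most entries: 68.5% of entries have fewer than the Cdh7 stretch and 86.7% fewer than the Pcdh18 stretch. Other listed Cdh7 starts have 17 and 3 CpG, and the other Pcdh9 start has 18. These sequences were not placed on mm9, so whether a peak covers any of them was not analysed here.

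All 3 windows were among the peak-richest of the genome. Of 465 autosomal windows of 5 Mb, the Cdh7 window ranked 3rd in peak number (53.4 peaks per Mb), the Pcdh10 and Pcdh18 window 5th (50.2) and the Pcdh9 window 8th (47.2), against a median of 58 peaks per 5 Mb window. Peaks covered 23.5% of the Cdh7 window (1175 kb), 21.3% of the Pcdh10 and Pcdh18 window (1063 kb) and 19.6% of the Pcdh9 window (982 kb). Among 4789 autosomal steps of 0.5 Mb the median was 4 peaks and the 90th percentile 21. Of the 30 steps of the windows, 23 held 21 or more, against 11.2% of autosomal steps, and the lowest of the 30 held 6. This excess follows from how the windows were chosen. The choice did not fix how peaks are laid out inside the windows or where the dense stretches end. It does favour a higher density inside than in the flanks, so the ratios of window to flank below are descriptions too.

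In the Cdh7 window the 10 steps from 110 Mb onward held 29, 29, 32, 22, 26, 34, 35, 14, 26 and 20 peaks. The first 7 of them, up to 113.5 Mb, each held at least 21, and the densest were the steps from 113 Mb (35 peaks, 31.7% covered) and from 112.5 Mb (34, 27.9%). The sparsest were those from 113.5 Mb (14 peaks, 10.2% covered) and from 114.5 Mb (20, 15.6%). Highest to lowest, the ratio was 2.5 (95% counting interval 1.31 to 5.03), a range for steps chosen by their values. The nearest steps outside were sparser, with 18 peaks before 110 Mb and 11 after 115 Mb. The 5 Mb before and after it held 130 and 134 peaks, and density in the window was 2.02 times that of both flanks together (1.70 to 2.41).

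The Pcdh10 and Pcdh18 window was one-sided. From 45 Mb its steps held 25, 31, 28, 34, 24, 27, 29, 21, 19 and 13 peaks. The densest steps began at 46.5 Mb (34 peaks, 33.2% covered) and 45.5 Mb (31, 30.8%), and the sparsest at 49.5 Mb (13, 8.54%) and 49 Mb (19, 19.3%). The ratio of highest to lowest was 2.62 (1.35 to 5.40). Before 45 Mb the dense stretch simply went on: every step from 42.5 to 49 Mb, 13 in a row or 6.5 Mb, held at least 21 peaks, and the step from 44 Mb held 35, more than any inside. Beyond 50 Mb peaks nearly stopped. The next steps held 8, 3, 0, 2 and 1 peaks, and the 5 Mb after the window 28 in all, against 171 in the 5 Mb before. Density in the window was 8.96 times that of the flank after it (6.05 to 13.8) and 1.47 times that of the flank before it (1.20 to 1.79).

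In the Pcdh9 window peaks were densest at its start. The steps from 90 Mb held 35, 25, 29, 28, 26, 25, 20, 6, 11 and 31 peaks, with the densest from 90 Mb (35 peaks, 34.4% covered) and from 94.5 Mb (31, 21.4%). Between them lay a hole, with 6 peaks from 93.5 Mb (2.98% covered) and 11 from 94 Mb (9.97%). The ratio of highest to lowest step was 5.83 (2.43 to 17.0). All 5 gaps of over 100 kb in this window followed each other here, from 93411900 to 94271999. These 860.1 kb held 6 peaks, or 6.98 per Mb (2.56 to 15.2), against 55.6 per Mb in the rest of the window, and were 1.73% covered. The 6 peaks were at most 4706 bp wide and 1 carried the authors' quality flag. Their log2 ratios went from 1.32 to 2.03, and 5 of the 6 lay above the median of 1.42 of the rest of the window. The stretch was singled out after its values were seen, and whether a gene occupies it on mm9 was not analysed here. Such a hole is not particular to this window: of the 43 other windows with at least 160 peaks, 22 had a longer gap than its longest of 281702 bp, and 18 had 5 or more gaps over 100 kb.

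The end of this window is no border of the dense stretch either. After 95 Mb the steps held 22, 28, 25, 32, 23, 25, 25 and 22 peaks before dropping to 7 and 2, so the longest run of steps with at least 21 peaks went from 94.5 to 99 Mb, mostly outside the window. The flank after it (211 peaks) was nearly as dense as the window, which had 1.12 times its density (0.925 to 1.35). The flank before it held 156.

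**Figure D1:**
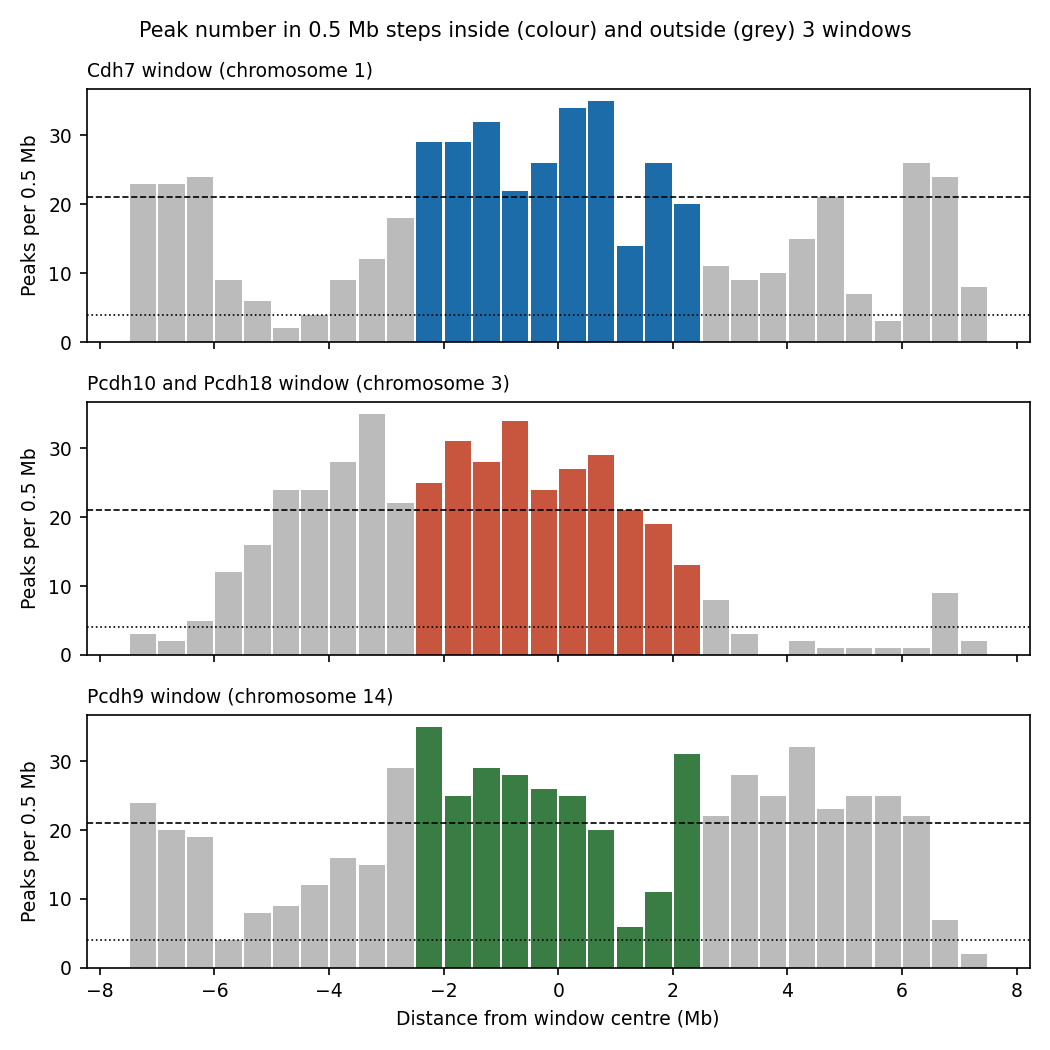
Peak number in steps of 0.5 Mb (vertical axis) against distance from the window's centre in Mb (horizontal axis), in colour inside the window and grey in the 5 Mb on each side; the dotted line is the autosomal median of 4 and the dashed line the 90th percentile of 21. The steps next to the Cdh7 window are sparser (18 and 11), the Pcdh10 and Pcdh18 window drops from 13 to 0 peaks on the right, and the Pcdh9 window has a hole of 6 and 11 peaks.

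The peaks just inside and just outside each border are given as a description. In the Cdh7 window the deposited log2 ratio of ChIP to scaled input was 0.94 for the last peak before 110 Mb and 1.15 for the first inside, and 1.66 for the last inside and 0.89 for the first after 115 Mb. On chromosome 3 it was 1.29 outside and 1.58 inside at 45 Mb, and 1.15 inside and 0.80 outside at 50 Mb. On chromosome 14 it was 0.96 outside and 0.97 inside at 90 Mb, and 1.99 inside and 1.88 outside at 95 Mb. At each of the 6 borders the inner peak had the higher ratio, but these are single peaks. Whole flanks did not all follow. Median ratios in the 5 Mb before and after the Cdh7 window were 1.13 and 1.29 (1.39 inside). On chromosome 3 they were 1.38 and 1.02 (1.33 inside), so the flank before lay above the window. Around the Pcdh9 window they were 1.39 and 1.37 (1.43 inside), with intervals that overlap the window's.

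Both ChIP and input signal were lower in the windows than in the list as a whole. The deposited values are mean reads per bin of a peak. Median ChIP was 55.4 reads per bin in the Cdh7 window (95% interval 55 to 56.1), 56 in the Pcdh10 and Pcdh18 window (55.1 to 56.6) and 55.5 in the Pcdh9 window (54.5 to 56.2), against 58.8 over the list. Median input was 10.2 (9.79 to 10.6), 10.5 (9.95 to 11) and 9.59 (9.28 to 10.1), against 11.9. ChIP was thus 4.80 to 5.74% below the list's median, and input 11.9 to 19.5% below it. The deposited log2 ratio of ChIP to scaled input was accordingly higher: its median was 1.39 (1.34 to 1.45), 1.33 (1.28 to 1.38) and 1.43 (1.38 to 1.48), against 1.20 over the list.

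The shift was seen in most steps of the windows. Median input lay below the list's median in 29 of the 30 steps, and median ratio above it in 28. The exceptions were the last steps before 50 Mb on chromosome 3: from 49.5 Mb the median input was 12 and the ratio 1.11, and from 49 Mb the ratio was 1.20, just under the list's value. Across steps the median ratio went from 1.22 to 1.54 in the Cdh7 window, 1.11 to 1.62 in the Pcdh10 and Pcdh18 window and 1.31 to 1.74 in the Pcdh9 window. A log2 ratio above 2 was reached by 26, 29 and 33 peaks. These are 9.74% (exact 95% interval 6.46 to 13.9%), 11.6% (7.88 to 16.2%) and 14% (9.82 to 19.1%). The whole list's share of 7.73% lies inside the interval of the Cdh7 window and just below that of the Pcdh10 and Pcdh18 window. Ratios below 1 were scarce, with 13.1%, 13.9% and 8.05% of peaks against 28.9% of the list. In the 5 Mb before and after, the shares were 30.8% and 19.4% (Cdh7), 11.7% and 50% (Pcdh10 and Pcdh18) and 14.7% and 19.9% (Pcdh9). The flank before the Pcdh10 and Pcdh18 window thus had a lower share than that window.

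The ratio moved with input. Among peaks with input at or above the list's median the windows' median log2 ratios were 0.99, 1.04 and 1.05, against 0.96 for such peaks of the whole list, closer together than over all peaks. In the windows the highest mean ChIP of a peak was 89.25 reads per bin and the highest log2 ratio 3.29, while the list's highest log2 ratio is 10.64. No peak lacked input reads altogether, 3 of 754 had an input under 0.25 times the list's median (1.09% of the list did), and none was above 4 times the median. Within the windows the ratio followed input, its denominator: Spearman's rho over peaks was -0.92, -0.90 and -0.93 for input with ratio and 0.61, 0.65 and 0.60 for ChIP with input, compared with -0.85 and 0.69 over 37637 autosomal peaks. These are descriptions over 267, 251 and 236 peaks that share the same libraries. Summed over all peaks of a window, with bin numbers inferred from the values, ChIP was 2.18 times the scaled input in the Cdh7 window, 2.13 times in the Pcdh10 and Pcdh18 window and 2.24 times in the Pcdh9 window.

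**Figure D2:**
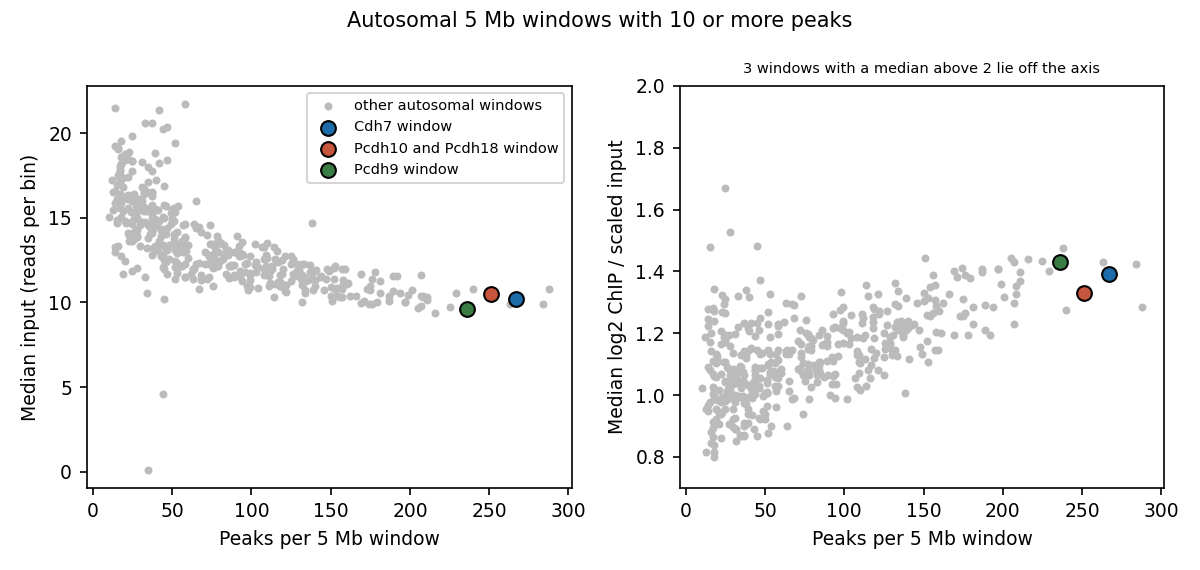
Median input per peak in reads per bin (left) and median deposited log2 ratio (right) against the number of peaks, for each autosomal 5 Mb window with 10 or more peaks; 3 windows with a median ratio above 2 lie off the right axis. The 3 coloured windows sit at the dense end, with medians of input between 9.59 and 10.5 and of the ratio between 1.33 and 1.43, next to other dense windows.

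The 3 windows lay among the other dense ones. The median over all autosomal 5 Mb windows of their median input was 13.0, and over the 43 other windows with 160 to 288 peaks it was 10.4. In these 43 the median input went from 9.36 to 11.8, median ChIP from 54.3 to 58.8 and the median ratio from 1.19 to 1.48, so that all 3 windows fell inside each range. The Pcdh9 window lay near an extreme, with the second-lowest input of the 46 windows and the 7th-highest ratio. The Pcdh10 and Pcdh18 window lay in the middle (20th-highest input and 24th-highest ratio). Inside the windows peak number and input were related unevenly. Over the 10 steps of a window, rho between the number of peaks and the median input was -0.32 in the Cdh7, -0.58 in the Pcdh10 and Pcdh18 and 0.01 in the Pcdh9 window; without steps of under 20 peaks it was -0.07, -0.24 and -0.28. Between peak number and the median ratio it was 0.30, 0.70 and 0.07, and 0.51, 0.40 and 0.49 without those steps. Neighbouring steps share libraries and sequence, and these values rest strongly on the few thin steps.

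Peak widths were near those of other dense windows. The median width was 3439 bp in the Cdh7 window (95% interval 3062 to 3800), 3288 bp in the Pcdh10 and Pcdh18 window (3013 to 3627) and 3695 bp in the Pcdh9 window (3165 to 4064), against 3085 bp over the list; the lower bounds of the first and the second of these intervals lie below that value. Over the 43 other dense windows the median of the median widths was 3517 bp, and among the 46 the Cdh7 window ranked 25th, the Pcdh10 and Pcdh18 window 32nd and the Pcdh9 window 14th. Very narrow peaks, under 1 kb, made up 1.12% (exact 95% interval 0.232 to 3.25%), 2.79% (1.13 to 5.66%) and 2.12% (0.691 to 4.87%) of the windows' peaks and 5.23% of the list, a share that the interval of the Pcdh10 and Pcdh18 window includes. Broad peaks of 10 kb or more numbered 21 in the Cdh7 window (7.87%, exact 95% interval 4.93 to 11.8%), 16 in the Pcdh10 and Pcdh18 window (6.37%, 3.69 to 10.1%) and 9 in the Pcdh9 window (3.81%, 1.76 to 7.12%), with 4.30% in the list. The interval of the Cdh7 window lies above the list's share, and those of the other two include it.

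The widest and the most enriched peaks were different peaks. In the 3 windows together the 152 peaks under 2 kb had a median log2 ratio of 1.66 (1.55 to 1.81) over 8.75 input reads per bin, the 377 of 2 to 5 kb 1.38 (1.34 to 1.45) over 10, the 179 of 5 to 10 kb 1.29 (1.24 to 1.35) over 10.6, and the 46 of 10 kb or more 1.29 (1.21 to 1.38) over 10.7. The whole list shows the same order, from 1.40 under 2 kb to 1.12 at 10 kb or more, and in each width class the windows lay above it. So the higher ratio of the windows was not confined to 1 width class.

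**Figure D3:**
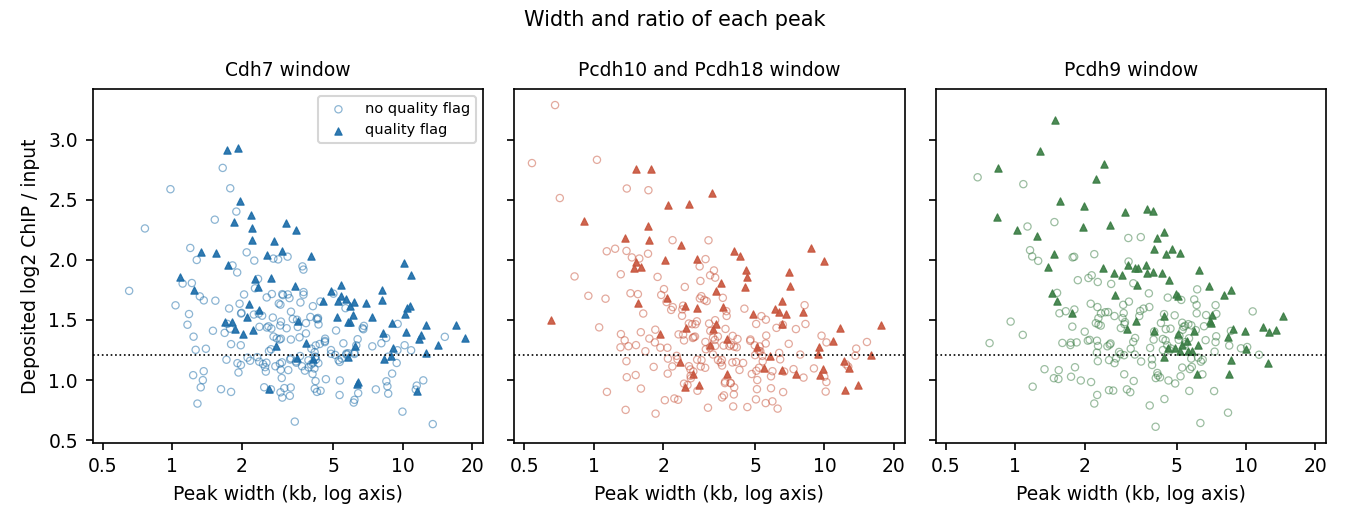
Each peak's deposited log2 ratio (vertical axis) against its width in kb on a log axis, for the 3 windows; filled triangles carry the authors' quality flag and the dotted line is the list's median of 1.20. Ratios above 2.5 occur only among peaks under 5 kb, while peaks of 10 kb or more stay below 2.

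Gaps between neighbouring peaks were short and alike in the windows. The median gap was 10042.5 bp in the Cdh7 window (95% interval 7831 to 11677), 10130 bp in the Pcdh10 and Pcdh18 window (8578 to 13018) and 8770 bp in the Pcdh9 window (6610 to 11642). Over all autosomes it was 19277 bp, and in single windows of the other dense ones it ranged from 6463 to 16970 bp. Gaps under 10 kb made up 50%, 49.6% and 53.6%, with 32.0% on the autosomes. The Pcdh9 window had the fewest peaks but the shortest median gap, with all of its gaps over 100 kb gathered in the sparse stretch. The longest gap was 109143 bp in the Cdh7 window (111763657 to 111872799), 134055 bp in the Pcdh10 and Pcdh18 window (48575026 to 48709080) and 281702 bp in the Pcdh9 window (93990298 to 94271999). Long unbroken runs did not occur: with gaps under 5 kb, the longest run was 4 peaks over 23905 bp in the Cdh7 window, 5 over 23400 bp in the Pcdh10 and Pcdh18 window and 5 over 38260 bp, from 90109140 to 90147399, in the Pcdh9 window.

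**Figure D4:**
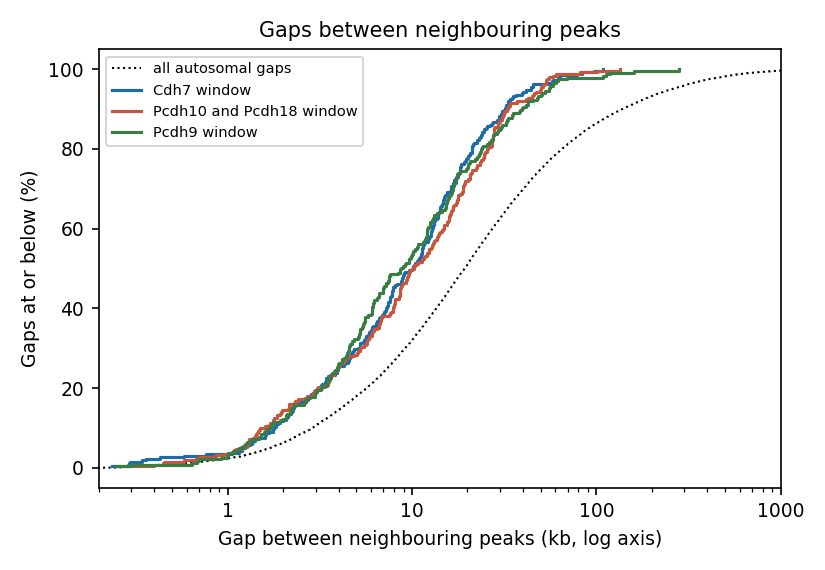
Cumulative share of gaps between neighbouring peaks (vertical axis, %) against gap length in kb on a log axis, for the 3 windows and for all autosomal gaps (dotted). The 3 curves run close together, with medians of 8770 to 10130 bp, left of the autosomal curve with its median of 19277 bp; the Pcdh9 curve ends at 281702 bp.

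By the authors' own measures of confidence the windows were near the list. The quality flag, carried in this list by all peaks whose smallest p over the bins is below 1e-04 and by no other, was carried by 75 peaks in the Cdh7 window (28.1%, exact 95% interval 22.8 to 33.9%), 67 in the Pcdh10 and Pcdh18 window (26.7%, 21.3 to 32.6%) and 75 in the Pcdh9 window (31.8%, 25.9 to 38.1%); 30.8% of all peaks carry it. These shares are near the background and are no result about the windows. The flag was most frequent among broad peaks: of the peaks of 10 kb or more, 60.9% had it in the 3 windows and 58.5% in the list, and of those of 2 to 5 kb 22.8% and 24.1%. A stricter limit, 0.05 for the mean p of a peak's bins, left 9, 4 and 6 peaks (3.37%, 1.59% and 2.54%, with exact intervals of 1.55 to 6.30%, 0.436 to 4.03% and 0.939 to 5.45%), against 3.17% of the list. These shares too were near the list's.

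The densest window of all, on chromosome 5 from 55 to 60 Mb, was most clearly apart in the share of peaks with a low mean p. Its 288 peaks had a median width of 4243 bp (3868 to 4583), 13.5% of them (9.81 to 18.0%) were 10 kb or wider, and 30 of 288 (10.4%, 7.14 to 14.5%) met the mean p of 0.05, against 19 of 754 (2.52%, 1.52 to 3.91%) in the 3 windows. Its median ratio was lower, at 1.29 (1.24 to 1.32). Its width interval overlaps that of the Pcdh9 window, and its ratio interval that of the Pcdh10 and Pcdh18 window. The interval of its broad share overlaps those of the Cdh7 and of the Pcdh10 and Pcdh18 window. That of the share with a low mean p overlaps none of the 3. Among the 46 dense windows the chromosome 5 window was not the extreme in these shares or in width. It ranked 2nd in the share with a low mean p, 3rd in the share of broad peaks and 5th in median width. Peaks of 1 window are not replicates, and no test of the difference was made.

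The peaks with the largest deposited ratio, among those with ChIP at or above the list's median, were narrower than the list's median of 3085 bp. Their input was below its median of 11.9 reads per bin. In the Cdh7 window they lay at 112931820 to 112932581 (762 bp, 68.2 ChIP over 5.75 input reads per bin, log2 ratio 2.26), at 110163372 to 110165587 (2216 bp, 64.9 over 6.17, also 2.26) and at 112431190 to 112432265 (1076 bp, 59.4 over 9.14, 1.86). In summed counts the first was 4.91 times the scaled input, with a counting interval of 3.20 to 7.87. Chromosome 3 had its highest at 46030600 to 46031139, 540 bp with 59 ChIP over 3.33 input reads per bin, a log2 ratio of 2.81 and a fold of 7.32 (3.89 to 15.5) from only 10 input counts. The next were at 45137623 to 45138533 (911 bp, 2.33 on the log2 scale) and 46620407 to 46623196 (2790 bp, 2.01, with 97 input counts). On chromosome 14 they were at 92538600 to 92539441 (2.76; 6.96-fold, 4.33 to 11.9), 91585113 to 91585799 (2.69; 7.09-fold, 4.14 to 13.2) and 94272000 to 94272831 (2.35; 5.42-fold, 3.66 to 8.34). The intervals within a window overlap, so the order of these peaks is not settled by their counts. The last of them, with 70.8 ChIP over 5.4 input reads per bin, is the peak that closes the sparse stretch of the Pcdh9 window.

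The widest peaks were enriched about 2-fold by summed counts. Their deposited log2 ratios, by name a mean over bins, stand for larger folds than the summed counts, so the measures are not interchangeable. In the Cdh7 window they spanned 114044639 to 114063269 (18631 bp, log2 ratio 1.35; 2.06-fold, 1.93 to 2.21), 113402742 to 113419763 (17022 bp, 1.46) and 110795000 to 110810185 (15186 bp, 1.36). In the Pcdh10 and Pcdh18 window they spanned 47236635 to 47254190 (17556 bp, 1.46; 2.19-fold, 2.04 to 2.35), 45468756 to 45484672 (15917 bp, 1.21) and 45796125 to 45811399 (15275 bp, 1.32). In the Pcdh9 window they were at 90758355 to 90772749 (14395 bp, 1.53; 2.33-fold, 2.15 to 2.53), 93095314 to 93108799 (13486 bp, 1.42) and 94339886 to 94352472 (12587 bp, 1.40). These ratios lie close to their windows' medians, and the counting intervals are tight because the peaks hold many reads.

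In all 3 windows the highest bin of the median peak held 1.41 times its mean ChIP, as in the list (1.42). Far above this was the peak at 45468756 to 45484672 on chromosome 3, whose highest bin held 199 ChIP reads over a mean of 56.2, the highest bin of the 754 peaks. The next in that window, at 45244512 to 45248286, reached 120. In the Pcdh9 window the highest were 149 reads (90856159 to 90863195) and 126 (92857846 to 92870310), and in the Cdh7 window 112 (110225540 to 110227572) and 110 (112961652 to 112962938). Weakest by ratio were a peak of 13466 bp at 114743168 to 114756633 in the Cdh7 window (0.63), 46126546 to 46128399 in the Pcdh10 and Pcdh18 window (0.72) and 92191001 to 92195057 in the Pcdh9 window (0.61), each with an input of 15.6 to 19.0 reads per bin, above the list's median.

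The 19 peaks with a mean p of at most 0.05 were scattered, over 14 of the 30 steps, and are named here because of that limit, after their values were seen. The lowest mean p, 0.0175, belonged to 92915857 to 92918280 in the Pcdh9 window (2424 bp, 43.5 ChIP over 3.31 input reads per bin, log2 ratio 2.80; 5.44-fold, 3.99 to 7.60). Next were 46903256 to 46912964 (9709 bp, mean p 0.0280) and 49359232 to 49369107 (9876 bp, 0.0286) in the Pcdh10 and Pcdh18 window, both about 2-fold by summed counts (2.14 and 1.82). In the Cdh7 window the lowest was 0.0394, at 110954427 to 110961199 (6773 bp, 2.51-fold, 2.24 to 2.82).

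The 3 windows shared a high peak density, by which they were chosen, and the short gaps that go with it (medians of 8770 to 10130 bp). They also shared a ChIP 4.80 to 5.74% and an input 11.9 to 19.5% below the list's medians. Their median log2 ratios were 0.13 to 0.23 above the list's, and their shares of quality-flagged peaks were near the background. Their outlines were not alike: a dense run of 3.5 Mb that starts with the Cdh7 window and lies inside it, a stretch that reaches 2.5 Mb before the window and nearly stops beyond 50 Mb on chromosome 3, and a stretch split by a sparse part in the Pcdh9 window.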

How the data were processed

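Libraries averaged 350 bp and were read as single 100 bp reads, per the labels' protocols. Bowtie 0.12.7 and mm9 are named in the submitters' processing notes, but no peak caller; the treatment of repeated or duplicate reads and how the libraries were joined are stated by no label or header. Library depths are unknown.

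The deposited list gives mean ChIP and mean input signal per bin of a peak, the highest ChIP count in 1 bin, and the authors' input scaled by 2.42. The deposited log2 ratio sets ChIP against scaled input and, going by its name, was averaged by the authors over a peak's bins. From the names in the header, the deposited −log10 values hold the mean and the smallest p of the bins; how p was computed is not stated. The deposited quality flag was used as given. The list's name states a false discovery rate of 0.20. The lowest log2 ratio listed is 0.59, and signal outside peaks was not analysed here.

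Members, gene lists and limits were chosen with earlier results of these data known. Peaks were assigned by midpoint. Medians have binomial 95% intervals, shares exact Clopper-Pearson intervals, ratios of densities and counts exact conditional intervals; those of medians cover the spread over peaks and the others counting error only, and reads are not independent molecules. Bin numbers were inferred as those nearest to width over 200 bp that make the sums whole (tolerance 1e-06 reads). Peaks were named by a rule: per window the 3 largest ratios with ChIP at or above the list's median, the 3 widest, the 2 highest bins, the lowest ratio, the longest gap and the longest run of gaps under 5 kb; peaks under the mean p limit were added later. Calculations were checked on simulated data. The software was Python 3.11.15 with numpy 2.4.6, pandas 2.3.3 and scipy 1.17.1, and figures were drawn by matplotlib 3.10.9.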

Additional observations from a re-analysis of the deposited data

How the results depend on the processing

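Alternatives gave 66 values, of which 38 stayed within the interval of the value reported, or within 1.5 times of it for counts and covered shares. This tally is no measure of robustness, since some alternatives could hardly move a value. Assigning by any overlap changed none, and merging close peaks or asking for an input of at least 0.5 times the list's median kept most peaks. Stricter limits leave fewer peaks by construction. The quality flag left 75, 67 and 75 peaks in the Cdh7, the Pcdh10 and Pcdh18 and the Pcdh9 window, on 8.49%, 7.14% and 7.37% of their length, with median log2 ratios of 1.60, 1.57 and 1.75 (1.39 over the list). A mean p of at most 0.05 left 9, 4 and 6 peaks on 1.11%, 0.513% and 0.658%, with ratios of 1.60, 1.33 and 1.60 (1.64 over the list). Ratios of mean counts with 1 added were 1.16, 1.11 and 1.19 (list 1.03), and with input at or above the list's median 0.99, 1.04 and 1.05 (list 0.96); the windows stayed above the list in both, and below it among peaks of low mean p. Steps of 1 Mb gave ratios of densest to sparsest of 1.3 (Cdh7) and 2.31 (Pcdh9), both below the counting intervals of the values reported. For the Pcdh10 and Pcdh18 window they gave 1.94, within its interval. The unevenness inside the windows thus depends on the step length. Among quality-flagged peaks the ratios of densest to sparsest step were larger than the values reported, at 4.33 (Cdh7), 4 (Pcdh10 and Pcdh18) and 15 (Pcdh9). They rest on few peaks, 13 over 3, 12 over 3 and 15 over 1, and such a ratio tends to grow as counts shrink. Steps shifted by 0.25 Mb gave 10.3 (Pcdh9). All of these lay within the counting intervals of the values reported. The density of the Cdh7 window over its flanks was 2.5 among quality-flagged peaks; that of the Pcdh10 and Pcdh18 window was 1.97 among them and 1.71 with flanks of 2.5 Mb, which keep the dense steps from 42.5 Mb and leave out the sparser ones before them. Merging peaks under 1 kb apart left 258, 242 and 229 peaks, and assigning by any overlap left the values as reported. Input at least 0.5 times the list's median, chosen after seeing the data, kept 248, 232 and 215 peaks and left the medians within their intervals. No paired analysis was possible because single libraries have no columns in the list, and so no replicate could be left out. Unknown library depth limits every comparison.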
